A study of Sus scrofa with 5 samples.

Results

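The genes described here are 6 cadherins (*CDH1*, *CDH2*, *CDH3*, *CDH5*, *CDH6* and *CDH11*) and the epithelial adhesion gene *EPCAM*, 7 of the 30029 genes in the single-cell count matrices of day 6 porcine blastoids. They were listed by name as adhesion genes that differ between epithelial, neural and mesenchymal cells, with earlier results of these data known. Blastoids are blastocyst-like structures grown from porcine embryonic stem cells (pESCs). In the paper's 2-step method, pESCs form clusters in 4FXY medium (the pESC medium 4FIXY without IWR1) before they enter iBlastoid medium. Single-cell RNA-seq was available for 2 libraries of day 6 blastoids from iBlastoid medium, and bulk RNA-seq for 3 libraries of pESCs kept in 4FIXY medium. By the labels each is a single condition, so the blastoid data were compared between groups of cells and the pESC data were described. Blastoids with a cavity and both compartments were picked by hand and dissociated with trypsin, so structures without these features are not represented. The pESCs are described as parthenogenetic (from eggs activated without a sperm), whereas 1 of the 3 bulk columns has a name that begins with IVF. The column names end in P7 or P25, which the labels do not explain. The pESCs were derived and also maintained on mouse feeder cells, and the part of feeder RNA in the bulk values was not tested.

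Cadherins are membrane proteins that hold neighbouring cells together by binding cadherins on the next cell, and catenins tie their inner ends to the actin skeleton. *CDH1* (E-cadherin) is the classical cadherin of epithelia and of the early embryo, *CDH3* (P-cadherin) is found in placenta and basal epithelia, and *EPCAM* is an adhesion protein of epithelia and pluripotent cells that is not a cadherin. *CDH2* (N-cadherin) is known from neural tissue and mesoderm, *CDH6* from the neural plate and kidney, *CDH11* from mesenchyme and *CDH5* (VE-cadherin) from endothelium. The exchange of *CDH1* for *CDH2* when cells leave an epithelium is called the cadherin switch, and ZEB and SNAI proteins, which bind E-box motifs, are known repressors of *CDH1*.

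The files were made on susScr11, and by the RefSeq annotation of that build (Sscrofa11.1) 5 of the 7 genes lie on chromosome 6. *CDH1* (gene ID 100048953) spans 18075487 to 18155986 on the minus strand in 16 exons. *CDH3* (gene ID 100187727) is its neighbour on the same strand, from 18190971 to 18236184 in 18 exons, and the 35.0 kb between them hold no other whole protein-coding gene. On that chromosome *CDH11* (gene ID 100525579) spans 25782746 to 25933753 with 6 annotated transcripts, *CDH5* (gene ID 414737) 27108560 to 27142145 and *CDH2* (gene ID 100515322) 112396713 to 112629073. *EPCAM* (gene ID 403163) lies on chromosome 3 from 93169800 to 93185221 in 9 exons, and *CDH6* (gene ID 100627510) on chromosome 16 from 17531862 to 17660081 in 13 exons.

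The 250 bases before the annotated start are shown for *CDH1*, *CDH3* and *EPCAM*, which share an epithelial role, and for *CDH2*, the partner of *CDH1* in the switch. Capitals mark CACCTG or its reverse complement CAGGTG, an E-box form bound by ZEB and SNAI proteins.
CDH1, chr6:18155987-18156236, minus strand: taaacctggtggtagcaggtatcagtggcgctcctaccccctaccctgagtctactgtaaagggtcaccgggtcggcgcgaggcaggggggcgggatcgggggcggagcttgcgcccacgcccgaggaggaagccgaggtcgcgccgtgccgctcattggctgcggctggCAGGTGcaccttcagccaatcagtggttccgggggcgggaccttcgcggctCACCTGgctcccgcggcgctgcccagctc
CDH3, chr6:18236185-18236434, minus strand: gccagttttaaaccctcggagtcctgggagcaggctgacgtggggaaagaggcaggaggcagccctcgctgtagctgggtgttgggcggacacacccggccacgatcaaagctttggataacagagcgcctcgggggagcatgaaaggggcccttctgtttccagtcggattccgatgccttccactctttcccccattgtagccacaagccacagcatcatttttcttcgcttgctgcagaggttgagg
EPCAM, chr3:93185222-93185471, minus strand: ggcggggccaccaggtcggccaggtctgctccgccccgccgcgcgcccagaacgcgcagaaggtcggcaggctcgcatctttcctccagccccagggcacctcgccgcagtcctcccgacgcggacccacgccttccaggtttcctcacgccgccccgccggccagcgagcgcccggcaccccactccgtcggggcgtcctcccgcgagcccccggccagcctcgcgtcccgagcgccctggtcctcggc
CDH2, chr6:112629074-112629323, minus strand: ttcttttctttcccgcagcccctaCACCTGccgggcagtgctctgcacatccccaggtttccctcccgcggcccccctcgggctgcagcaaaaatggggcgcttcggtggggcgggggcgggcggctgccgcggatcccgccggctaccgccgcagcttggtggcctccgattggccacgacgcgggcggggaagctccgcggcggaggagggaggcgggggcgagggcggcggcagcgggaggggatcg
The *CDH1* window held the motif at 2 places, CAGGTG 80 bases and CACCTG 29 bases before the start. The *CDH2* window held it once, 226 bases before the start, and the windows of the other 5 genes did not hold these letters. Of 19556 such windows of protein-coding genes, 19.6% held the motif on either strand and 2.87% held it at 2 or more places. The broader form CANNTG, which includes the narrower one, was in 61.9% of windows. A match of letters describes the sequence and is no measurement of binding.

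Cells were barcodes with at least 11223 UMIs (unique molecular identifiers, counted RNA molecules) in library 1 and 9805 in library 2, which gave 7369 and 8175 cells with a median of 29728 and 27588 UMIs. The libraries shared 9 cell barcodes. Each cell was placed in at most 1 of 6 gates, by the gate gene (*POU5F1*, *CRABP1*, *GABRP*, *TP63*, *SCRG1* or *COL3A1*) that exceeded its mean in the library by the largest factor, with at least 5 UMIs and a factor of at least 2. In libraries 1 and 2 the gates held 773 and 1067 cells for *POU5F1*, 254 and 379 for *CRABP1*, 1020 and 997 for *GABRP*, 1026 and 961 for *TP63*, 36 and 30 for *SCRG1* and 577 and 471 for *COL3A1*. Of the marker genes listed for each cell type, 6 of 7 pluripotent markers were highest in the *POU5F1* gate, 8 of 9 anterior neural markers in the *CRABP1* gate, 6 of 10 amnion or trophoblast markers in the *GABRP* gate, 8 of 9 neural crest markers in the *SCRG1* gate and 8 of 9 mesenchyme markers in the *COL3A1* gate. Of 8 hypoblast markers 4 (*GATA6*, *GATA4*, *NID2* and *COL4A1*, named after their values were seen) were also highest in the *COL3A1* gate, where the list summed to 719.9 and 741 UMIs per 1000000 with *FOXA2*, named on the same ground, at 0, against 113 to 382 in the other gates, and their part in the results was not tested. Only 1 of 6 surface ectoderm markers was highest in the *TP63* gate, so all gates are called by their gene. The median UMI count per cell ranged from 20220 in the *COL3A1* gate of library 2 to 40877 in the *POU5F1* gate of library 1.

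Levels are given in CPM, the UMIs of a gene when the UMIs of its gate are scaled to 1000000. The quasi-likelihood test of edgeR compared the 12 sums of UMIs per gate and library, with Benjamini-Hochberg adjustment over 18025 genes. The mean of the other gates, or the other gates for short, is the mean of their fitted log2 levels, so gates with low levels pull it down. The labels do not say that the 2 libraries came from separate cultures, so the p-values measure only the spread between these sums, which may be technical. Of the members, 6 entered the test and *CDH5* did not pass the filter on low counts. In sums of cells, fewer cells that express a gene and less RNA per cell cannot be told apart, so the share of cells with a UMI is given further on.

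*CDH1* was highest in the *GABRP* gate and lowest in the *COL3A1* and *SCRG1* gates. It stood at 264 and 259 CPM in libraries 1 and 2 of the *GABRP* gate, at 199.6 and 190.4 in the *POU5F1* gate, at 174 and 167 in the *TP63* gate and at 121 and 126 in the *CRABP1* gate. The *SCRG1* gate had 37.5 and 81.7 and the *COL3A1* gate 54.4 and 44.4. The 4 upper gates did not overlap, whereas the 2 lowest did, and the libraries lay farthest apart in the *SCRG1* gate with its 66 cells. Against the mean of the other 5 gates, *CDH1* was higher in the *GABRP* gate by 1.59 on the log2 scale (SE 0.088, adjusted p = 1.98e-09), in the *POU5F1* gate by 0.77 (SE 0.092, adjusted p = 8.87e-06) and in the *TP63* gate by 0.63 (SE 0.093, adjusted p = 8.87e-05). It was lower in the *COL3A1* gate, with a log2 difference of -1.48 (SE 0.11, adjusted p = 1.12e-07). Its difference in the *CRABP1* gate was -0.11 (SE 0.10, adjusted p = 0.464) and did not pass the test, although it did with barcodes from 1000 UMIs taken as cells (-0.44, adjusted p = 0.0117). With each cell thinned to 9800 UMIs the log2 differences were 1.16 in the *POU5F1* gate and 1.02 in the *TP63* gate.

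*CDH3* went with its neighbour *CDH1* in the *GABRP* and *TP63* gates but not in the *POU5F1* and *COL3A1* gates. Its levels were 127 and 107 CPM in the *GABRP* gate, 91.3 and 87.4 in the *TP63* gate and 72.3 and 72.0 in the *COL3A1* gate. They were 35.7 and 29.4 in the *POU5F1* gate, 33.6 and 25.3 in the *CRABP1* gate and 16.3 and 23.2 in the *SCRG1* gate. Among neighbours in this order only the *POU5F1* and *CRABP1* gates overlapped. *CDH3* was higher than in the other gates in the *GABRP* gate (1.76, SE 0.084, adjusted p = 4.68e-10), in the *TP63* gate (1.07, SE 0.089, adjusted p = 3.45e-07) and in the *COL3A1* gate (0.73, SE 0.097, adjusted p = 2.75e-05), values on the log2 scale. It was lower in the *POU5F1* gate (-0.77, SE 0.11, adjusted p = 3.23e-05), where *CDH1* was higher, and in the *CRABP1* gate (-1.06, SE 0.12, adjusted p = 1.32e-05). Thinning the cells made the difference in the *COL3A1* gate 1.12.

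*EPCAM* had its highest level in CPM in the *POU5F1* gate, whereas its fitted difference from the other gates, which also takes in a scaling of the sums for their composition (TMM), was largest in the *GABRP* gate. The 2 gates were not tested against each other. Its levels were 295 and 304 CPM there, 264 and 268 in the *GABRP* gate, 247 and 253 in the *TP63* gate and 180.2 and 212 in the *CRABP1* gate. The *COL3A1* gate had 70.3 and 62.1 and the *SCRG1* gate 57.9 and 70.6, and only these lowest 2 overlapped. Cells in no gate had 245 and 261, which overlapped the *GABRP* and *TP63* gates. Against the other gates *EPCAM* was higher in the *POU5F1* gate by 1.03 on the log2 scale (SE 0.064, adjusted p = 1.91e-08), in the *GABRP* gate by 1.14 (SE 0.064, adjusted p = 2.60e-09) and in the *TP63* gate by 0.80 (SE 0.066, adjusted p = 2.83e-07). Its log2 difference in the *COL3A1* gate was -1.46 (SE 0.080, adjusted p = 2.81e-09). In the *CRABP1* gate a difference of 0.20 (SE 0.071, adjusted p = 0.0419) was 0.31 without library 1, 0.080 without library 2, 0.52 without doublet calls and 0.36 with thinned cells. It lost the call in 5 of 11 alternatives, with adjusted p from 0.0521 to 0.962. Among these the mitochondrial filter gave a difference of 0.21 and the others gave 0.0090 to 0.060.

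**Figure D1:**
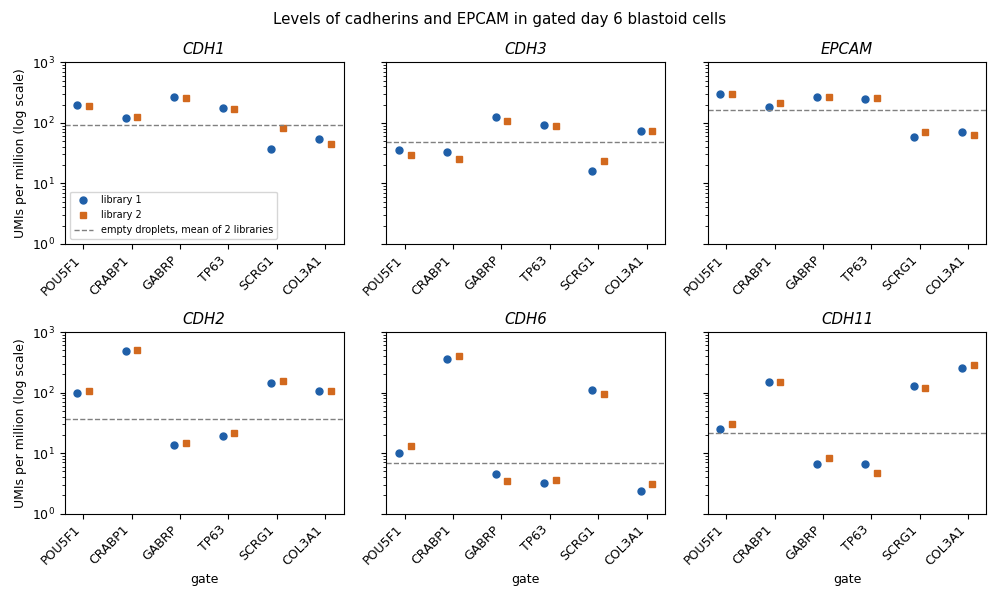
Level of each tested member in CPM (log axis) in the 6 gates of day 6 blastoid cells. Points are the 2 libraries, and the dashed line is the mean of empty droplets, barcodes with 10 to 100 UMIs. CDH1 and EPCAM are low in the SCRG1 and COL3A1 gates, CDH2 and CDH6 peak in the CRABP1 gate and CDH11 peaks in the COL3A1 gate.

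Leaving out cells called doublets, droplets that may hold more than 1 cell, lowered *CDH1* and *EPCAM* in the *COL3A1* gate. The calls were the cells with the highest Scrublet scores at an assumed rate, and the automatic threshold of the method marked 1 and 0 cells. The score rises with likeness to mixed cells, so cells with both mesenchymal and epithelial RNA can be called without being doublets. Which of the 2 they are was not tested. Doublet calls made up 14.4 and 12.5% of the cells in this gate and 2.78 to 10.0% in the other gates. Without them *CDH1* was at 17.6 and 19.0 CPM and *EPCAM* at 19.2 and 25.0 in the *COL3A1* gate, and their log2 differences from the other gates became -2.88 and -3.02. *CDH3* was at 76.9 and 75.2, close to its level with them, *CDH11* at 309.8 and 332 and *CDH2* at 113 and 119.

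*CDH2* was highest in the *CRABP1* gate, with 483 and 504 CPM, and lowest in the *GABRP* gate, with 13.8 and 14.9, a 34.5-fold difference between the means. Without doublet calls these gates stood farther apart, at 537 and 548 and at 9.41 and 8.31. The *SCRG1* gate had 146 and 153, the *COL3A1* gate 105 and 107, the *POU5F1* gate 98.8 and 106 and the *TP63* gate 18.8 and 21.8. Only the *COL3A1* and *POU5F1* gates overlapped. *CDH2* was higher than in the other gates in the *CRABP1* gate by 3.03 on the log2 scale (SE 0.052, adjusted p = 3.02e-14). It was also higher in the *SCRG1* gate (1.00, SE 0.094, adjusted p = 4.11e-06), the *COL3A1* gate (0.58, SE 0.061, adjusted p = 2.92e-06) and the *POU5F1* gate (0.40, SE 0.059, adjusted p = 6.06e-05). The low *GABRP* and *TP63* gates pull down the mean of log2 levels used here. In a plain mean of CPM the *CRABP1* gate would weigh most, and the *COL3A1* and *POU5F1* gates would lie below that mean. *CDH2* was lower in the *GABRP* gate (-2.69, SE 0.077, adjusted p = 3.24e-12) and in the *TP63* gate (-2.31, SE 0.074, adjusted p = 5.03e-11). The difference in the *COL3A1* gate was 0.91 without doublet calls.

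*CDH6* had the widest range of the tested members, with a 139.8-fold difference between the means of its highest and lowest gate. It stood at 362 and 395 CPM in the *CRABP1* gate, at 112 and 95.9 in the *SCRG1* gate and at 10.0 and 13.3 in the *POU5F1* gate. The *GABRP* gate had 4.47 and 3.43, the *TP63* gate 3.22 and 3.56 and the *COL3A1* gate 2.35 and 3.07, and of neighbours in this order only the *GABRP* and *TP63* gates overlapped. The log2 difference from the other gates was 5.33 in the *CRABP1* gate (SE 0.084, adjusted p = 1.04e-14) and 3.13 in the *SCRG1* gate (SE 0.18, adjusted p = 2.80e-08). It was -3.05 (SE 0.19, adjusted p = 8.96e-09) in the *COL3A1* gate, where *CDH2* and *CDH11* were higher. In the *POU5F1* gate it was -0.60 (SE 0.12, adjusted p = 7.70e-04), and -0.024 (adjusted p = 0.961) when cells that passed more than 1 gate were left out. The *POU5F1* gate then kept 752 and 1054 cells, whereas the *SCRG1* gate, which is part of the mean of the others, kept 8 and 2.

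*CDH11* had its peak in the *COL3A1* gate, at 256 and 284 CPM. The *CRABP1* gate had 150.5 and 148, the *SCRG1* gate 129 and 118 and the *POU5F1* gate 24.8 and 30.0. The *GABRP* gate had 6.53 and 8.25 and the *TP63* gate 6.62 and 4.63, and these lowest 2 overlapped. Without doublet calls they stood at 4.61 and 3.94 and at 4.32 and 3.36. The log2 difference from the other gates was 3.27 in the *COL3A1* gate (SE 0.081, adjusted p = 8.07e-13), 2.03 in the *CRABP1* gate (SE 0.091, adjusted p = 8.21e-10) and -0.80 in the *POU5F1* gate (SE 0.10, adjusted p = 1.57e-05). It was -3.46 in the *TP63* gate (SE 0.13, adjusted p = 2.46e-10) and -2.77 in the *GABRP* gate (SE 0.13, adjusted p = 2.64e-10).

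*CDH5* was at the edge of detection in the summed counts. Over all 15544 cells it had 68 UMIs among 519026376, which is 0.131 CPM (exact Poisson 95% interval 0.102 to 0.166, counting error only). These UMIs lay in 40 cells, with as many as 9 in 1 cell, a clumping that the interval leaves out. The *SCRG1* gate had 0 UMIs among 2217963, which allows a level of up to 1.35 CPM at 3 counts, and the other gates had 2 to 13 UMIs. The summed level of 12 endothelial markers was 173 and 176 CPM in the *COL3A1* gate and between 43.6 and 95.3 in the others. Each of the 12 was found in a larger share of the 40 cells with *CDH5* than of the other 15504 cells, though depth was not matched in this count. *PECAM1* (the endothelial surface marker CD31), picked after its values were seen, was found in 15.0% of the former and 5.59% of the latter. Few cells stand behind these shares, with the 12 markers in 1 to 33 of the 40 cells. The marker found in 33 was also in 60.2% of the other cells.

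Counted by gate, all 6 tested members differed from the other gates in each gate but that of *CRABP1*. In the *GABRP* gate *CDH1*, *CDH3* and *EPCAM* were higher and *CDH2*, *CDH6* and *CDH11* lower, where 53.4% of all genes passed, 29.7% being higher and 23.7% lower. The *TP63* gate had the same 3 higher and the same 3 lower, where 41.9% of all genes passed, 22.7% being higher and 19.3% lower. The *SCRG1* gate had the opposite sign for all 6, where 20.2% of all genes passed, 9.20% being higher and 11% lower. The *POU5F1* gate was higher in *CDH1*, *EPCAM* and *CDH2* and lower in *CDH3*, *CDH6* and *CDH11*, where 49.1% of all genes passed, 25.7% being higher and 23.4% lower. The *COL3A1* gate was higher in *CDH3*, *CDH2* and *CDH11* and lower in *CDH1*, *EPCAM* and *CDH6*, where 40.6% of all genes passed, 22.4% being higher and 18.1% lower. In the *CRABP1* gate 5 of 6 members passed, with *EPCAM*, *CDH2*, *CDH6* and *CDH11* higher and *CDH3* lower, where 32.8% of all genes passed, 17.4% being higher and 15.5% lower. A call is therefore common in these data.

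**Figure D2:**
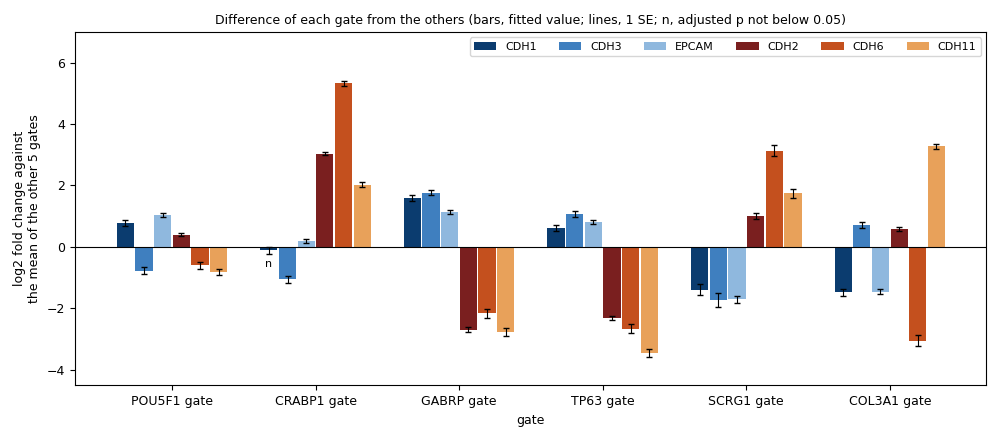
Log2 difference of each gate from the mean log2 level of the other 5 gates for the 6 tested members, with lines for 1 SE from the fit over the 12 sums. CDH1 in the CRABP1 gate, at -0.11, is the value that did not pass the test. The GABRP and TP63 gates show the reverse of the SCRG1 gate for all 6 members.

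The *SCRG1* gate rests on few cells, and 27 of them in each library also passed the *CRABP1* gate. Its log2 differences from the other gates were -1.40 for *CDH1* (SE 0.18, adjusted p = 7.45e-05), -1.72 for *CDH3* (SE 0.23, adjusted p = 1.09e-04), -1.71 for *EPCAM* (SE 0.12, adjusted p = 3.20e-07) and 1.74 for *CDH11* (SE 0.16, adjusted p = 2.66e-06). When cells that passed more than 1 gate were left out, 8 and 2 cells remained and none of the 6 members passed, with adjusted p from 0.0707 to 0.761, where 2.34% of all genes did. The log2 differences were then -1.03 for *CDH1*, -1.03 for *CDH3*, -0.77 for *EPCAM*, 0.62 for *CDH2*, 0.72 for *CDH6* and 1.42 for *CDH11*, all of the same sign as before. With a gate minimum of 3 UMIs the differences were -0.79 for *CDH1*, -0.92 for *CDH3* and -0.84 for *EPCAM*, and with thinned cells -2.22 for *CDH1* and -3.12 for *CDH3*. The *CDH1* difference was -0.86 without library 1 and -2.04 without library 2. Of 7 cardiac markers in the matrix, 4 were highest in this gate and none was at 0, with a summed level of 449 CPM in 1 library and 38.3 in the other, against 346 to 352 in the *COL3A1* gate. Their part in the result was not tested.

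Pairs of gates were then compared directly. The *COL3A1* gate against the *POU5F1* gate sets cells high in a mesenchymal collagen against cells high in a pluripotency factor, and 5 of 6 members passed, where 52.8% of all genes did (26.7% higher and 26.1% lower). *CDH11* was higher by 3.40 on the log2 scale (SE 0.12, adjusted p = 4.73e-11) and *CDH3* by 1.25 (SE 0.11, adjusted p = 3.09e-07). *EPCAM* was lower with a log2 difference of -2.07 (SE 0.090, adjusted p = 2.28e-10), *CDH6* with -2.04 (SE 0.22, adjusted p = 2.09e-06) and *CDH1* with -1.87 (SE 0.13, adjusted p = 1.98e-08). With doublet calls left out, *CDH1* and *EPCAM* differed by -3.29 and -3.67. *CDH2*, the usual partner of the switch, differed by 0.15 (SE 0.077, adjusted p = 0.120), which did not pass. With the library as a replicate block it was 0.15 with adjusted p = 0.0153, and it also passed without doublet calls (0.29, adjusted p = 0.00827) and with a gate factor of 4 (0.32, adjusted p = 0.00827).

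In the *CRABP1* gate against the *POU5F1* gate, where 41.2% of genes passed (20.9% higher and 20.3% lower), 5 of 6 members did. *CDH6* was higher by 4.93 on the log2 scale (SE 0.13, adjusted p = 8.93e-12), *CDH11* by 2.36 (SE 0.12, adjusted p = 4.37e-09) and *CDH2* by 2.19 (SE 0.077, adjusted p = 1.22e-10). *CDH1* and *EPCAM* were lower, at -0.73 (SE 0.12, adjusted p = 2.50e-04) and -0.69 (SE 0.085, adjusted p = 2.02e-05). *CDH3* differed by -0.24 (SE 0.13, adjusted p = 0.156) and did not pass, although it did with barcodes from 1000 UMIs taken as cells (-0.57, adjusted p = 0.00403) and with no filter on low counts (adjusted p = 0.0288). The fitted *CDH1* level was 0.601 times that of the *POU5F1* gate and the *CDH2* level 4.56 times, whereas in the *COL3A1* gate *CDH1* was 0.273 times.

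The *SCRG1* and *CRABP1* gates were the highest 2 for *CDH2* and *CDH6*. In the *SCRG1* gate against the *CRABP1* gate, where 16.2% of genes passed (7.74% higher and 8.49% lower), 4 of 6 members did. *CDH6* (-1.83, SE 0.15, adjusted p = 2.04e-06), *CDH2* (-1.69, SE 0.098, adjusted p = 7.58e-08), *EPCAM* (-1.59, SE 0.14, adjusted p = 3.33e-06) and *CDH1* (-1.07, SE 0.20, adjusted p = 0.00222) were lower in the *SCRG1* gate. *CDH11* (-0.24, SE 0.16, adjusted p = 0.370) and *CDH3* (-0.55, SE 0.28, adjusted p = 0.217) did not pass, whereas *CDH3* did with thinned cells (-1.93, adjusted p = 0.0196). The *CDH1* difference was -0.62 without library 1, -1.64 without library 2, -0.47 with a gate minimum of 3 UMIs and -1.91 with thinned cells. With cells of more than 1 gate left out, adjusted p was 0.294 for *CDH1* and 0.0963 for *EPCAM*, and the *CDH6* difference was -4.42.

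The *GABRP* and *TP63* gates had the same signs against the other gates and differed from each other in size. In libraries 1 and 2, 328 and 364 cells passed both gates, the largest overlap of any pair, and each cell was placed in only 1 gate. In the *GABRP* gate against the *TP63* gate, where 31.0% of genes passed (17.8% higher and 13.1% lower), 5 of 6 members did. *CDH1* was higher by 0.80 on the log2 scale (SE 0.12, adjusted p = 1.23e-04), *CDH3* by 0.58 (SE 0.10, adjusted p = 6.04e-04) and *EPCAM* by 0.28 (SE 0.083, adjusted p = 0.0200), and *CDH2* differed by -0.32 (SE 0.090, adjusted p = 0.0158). With a gate factor of 4 the *EPCAM* difference was 0.43 and that of *CDH2* -0.48, and without doublet calls that of *CDH2* was -0.60. When barcodes from 1000 UMIs were admitted as cells, *EPCAM* and *CDH2* lost the call (adjusted p = 0.0537 and 0.0620), and with a gate minimum of 3 UMIs *CDH2* did (adjusted p = 0.0545). *CDH11* was higher by 0.57 (SE 0.17, adjusted p = 0.0198), but by 1.00 without library 1 and 0.17 without library 2, and it lost the call in 5 of 11 alternatives, with a gate factor of 4 giving 0.26 and doublet calls left out 0.35. *CDH6* differed by 0.42 (SE 0.20, adjusted p = 0.129), and with no filter on low counts its adjusted p was 0.0273.

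To see whether *CDH1* and *CDH2* were in the same cells, each cell was thinned to 9800 UMIs, which left out no cell, and the cells with at least 1 UMI of each gene were counted. A *CDH1* UMI was found in 87.5 and 86.5% of thinned cells of the *GABRP* gate in libraries 1 and 2 and in 16.8 and 16.1% of the *COL3A1* gate, and before thinning in 98.3 and 97.4% and in 26.7 and 24.6%. These shares include doublet calls, without which the *CDH1* level in the *COL3A1* gate was 17.6 and 19.0 CPM. For *CDH2* the thinned shares were 78.3 and 83.4% in the *CRABP1* gate and 6.76 and 8.12% in the *GABRP* gate, and before thinning 88.6 and 89.7% and 18.2 and 19.7%. The lower gate of each pair shows how often the gene was met where its level was low.

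In the *POU5F1* gate 51.0 and 46.4% of cells in libraries 1 and 2 had *CDH1* only, 9.70 and 9.28% had *CDH2* only and 28.7 and 32.4% had both. The *CRABP1* gate had 13.4 and 11.6% of cells with *CDH1* only, 48.4 and 44.1% with *CDH2* only and 29.9 and 39.3% with both. These 2 gates had the largest shares of cells with both genes. Free RNA at an upper limit set from empty droplets would give a *CDH1* UMI in 14.2 and 13.1% of thinned cells of the *CRABP1* gate, where 43.3 and 50.9% had one. The same limit for *CDH2* was 3.57 and 3.79% of cells in the *POU5F1* gate, where 38.4 and 41.7% had a UMI. In library 2 the limit of the *POU5F1* gate came from *CRABP1*, itself a gate gene, whose level there depends on the gating. How much of the shares of cells with both genes is free RNA was not tested.

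Smaller shares had both genes in the other gates. *CDH1* only was found in 81.5 and 79.9% of cells of the *GABRP* gate and in 70.2 and 67.0% of the *TP63* gate, with both genes in 5.98 and 6.52% and in 8.28 and 8.64%. In the *COL3A1* gate 44.5 and 43.9% had *CDH2* only, 9.36 and 9.55% had *CDH1* only and 7.45 and 6.58% had both, and without doublet calls 4.03 and 4.61% had both. In the *SCRG1* gate 63.9 and 56.7% had *CDH2* only and 8.33 and 13.3% had both. Counting only cells with at least 2 UMIs of each gene, a choice made after seeing the data, left a mean of 9.78% in the *POU5F1* gate and 15.2% in the *CRABP1* gate with both.

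**Figure D3:**
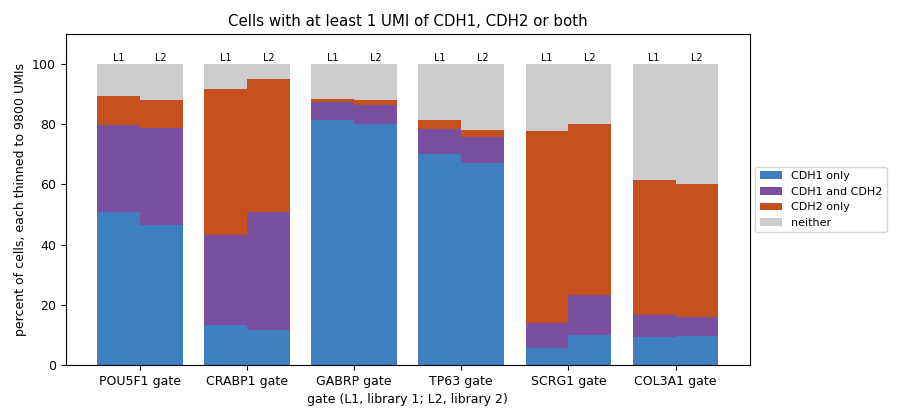
Percent of cells with at least 1 UMI of CDH1 only, of both genes, of CDH2 only or of neither, after each cell was thinned to 9800 UMIs, for 6 gates and 2 libraries. Cells with both genes make up 28.7 and 32.4% of the POU5F1 gate and 5.98 and 6.52% of the GABRP gate.

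Within the *CRABP1* gate the pair was found together in 29.9 and 39.3% of cells, where the product of the 2 shares gives 33.9 and 42.5%. Of cells with *CDH1* there, 69.1 and 77.2% had *CDH2*, and of cells without it 85.4 and 89.8%. In the *POU5F1* gate these shares were 36.0 and 41.1% and 47.8 and 43.8%. Cells of 1 library are not replicates, so the shares carry no test.

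*CDH2* and *CDH6* were paired in the *CRABP1* gate, where 79.4 and 80.1% of cells with *CDH2* had *CDH6*, against 25.5 and 12.7% of cells without it. *CDH2* and *CDH11* went together in the *POU5F1* gate, where 30.6 and 33.0% of cells with *CDH2* had *CDH11*, against 7.98 and 11.1% of cells without it. The same shares were 67.8 and 71.2% and 12.7 and 7.94% in the *CRABP1* gate. In the *COL3A1* gate, where *CDH11* was frequent throughout, they were 82.3 and 86.1% and 79.1 and 76.8%.

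*CDH1* and *EPCAM* were found together in 74.4 and 75.3% of cells of the *POU5F1* gate, 79.9 and 80.3% of the *GABRP* gate and 70.8 and 69.1% of the *TP63* gate. In the *COL3A1* gate 9.53 and 9.34% of cells had both, where the product of the shares gives 3.41 and 3.25%. With doublet calls left out it was 1.61 and 2.91%, where the product gives 0.850 and 1.06%. *CDH3* and *CDH11* shared 41.9 and 43.3% of the cells of that gate, close to the product of 41.7 and 41.9%.

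RNA from broken cells can enter every droplet. Empty droplets held 99.4 and 86.2 CPM of *CDH1* and 155 and 167 of *EPCAM*, above the levels of both in the *COL3A1* and *SCRG1* gates. An upper limit for such RNA was set in each gate from the gene that was lowest there against empty droplets, as if all its UMIs were free RNA. By it the *COL3A1* gate could hold up to 5.47 and 5.89 CPM of *CDH1* and 8.53 and 11.4 of *EPCAM* from free RNA. In both libraries the limit of this gate came from *CRABP1*, itself a gate gene, whose level there depends on the gating. All 6 tested members were above this limit in each gate and library. The limit was the lowest over all genes with at least 200 UMIs in empty droplets, so nearly any gene lies above it. *EPCAM*, with 254 and 391 such UMIs in libraries 1 and 2, and *CDH1* in library 2, with 202, were among these genes. They could not fall below the limit, so this outcome is no test of free RNA.

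The inner partners of the cadherins were read next. This list and those below were also chosen with earlier results of these data known, so their counts are no independent support. Of 10 catenin and linker genes, 2 were higher and 6 lower in the *COL3A1* gate against the *POU5F1* gate, with a median log2 difference of -0.37, against -0.0074 over all genes tested, of which 26.7% were higher and 26.1% lower. *CTNNA2*, the alpha-catenin of neurons, was lower (-2.01, adjusted p = 1.84e-06), as was *CTNND2*, a neural delta-catenin (-1.45, adjusted p = 2.98e-10). *CTNNB1*, beta-catenin, was higher (1.40, adjusted p = 1.31e-10), at 424 and 412 CPM against 170.3 and 169, while *CDH1* was lower in the same comparison. In the *CRABP1* gate against the *POU5F1* gate 4 were higher and 3 lower, with a median of 0.10, against 0.015 over all genes tested, of which 20.9% were higher and 20.3% lower. *CTNNA2* was higher (1.36, adjusted p = 4.95e-05), at 336 and 373 CPM against 132 and 130.0.

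Transcription factors of the epithelial-to-mesenchymal transition (EMT) were mostly higher in the *COL3A1* and *CRABP1* gates than in the *POU5F1* gate. Both comparisons share the *POU5F1* sums. Of 9 such factors, 8 were higher and 0 lower in the *COL3A1* gate against the *POU5F1* gate, with a median log2 difference of 2.93, against -0.0074 over all genes tested, where 26.7% of all genes were higher. *PRRX1*, a factor of limb and facial mesenchyme, differed by 6.29 (SE 0.22, adjusted p = 3.61e-11). *TWIST1*, which was also among the mesenchyme markers, differed by 6.16 (SE 0.51, adjusted p = 1.68e-07). *SNAI2*, a repressor of *CDH1* that was also among the neural crest markers, differed by 5.36 (SE 0.17, adjusted p = 1.87e-11) and stood at 102 and 84.8 CPM in the *COL3A1* gate and 2.98 and 1.97 in the *POU5F1* gate.

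In the *CRABP1* gate against the *POU5F1* gate 7 of the 9 were higher and 0 lower, with a median log2 difference of 1.11, against 0.015 over all genes tested, where 20.9% of all genes were higher. *ZEB1* differed by 4.31 (SE 0.24, adjusted p = 1.09e-08) and *ZEB2* by 2.92 (SE 0.11, adjusted p = 1.62e-10). *ZEB2* stood at 117 and 120.0 CPM in the *CRABP1* gate, 99.9 and 111 in the *COL3A1* gate, 379 and 453 in the *SCRG1* gate and 14.5 and 15.2 in the *POU5F1* gate. In the *GABRP* and *TP63* gates it was at 2.50 and 3.23 and at 2.44 and 1.83. *CDH1* was at 121 and 126 in the *CRABP1* gate and 54.4 and 44.4 in the *COL3A1* gate, or 17.6 and 19.0 there without doublet calls.

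Factors that maintain epithelia were lower in the *COL3A1* gate than in the *POU5F1* gate and divided in the *CRABP1* gate. Of 9 tested, 9 were lower in the *COL3A1* gate against the *POU5F1* gate, with a median log2 difference of -1.58, against -0.0074 over all genes tested, where 26.1% of all genes were lower. *OVOL2*, a repressor of EMT factors, was lower (-3.07, adjusted p = 6.45e-09), as was the splicing factor *ESRP1* (-1.94, adjusted p = 7.50e-07). There were 5 lower and 2 higher in the *CRABP1* gate, with a median of -0.45, against 0.015 over all genes tested, of which 20.3% were lower and 20.9% higher. *OVOL2* was lower there (-1.97, adjusted p = 8.50e-07), while *GRHL3*, a factor of the closing neural tube and of skin that was also among the surface ectoderm markers, was higher (1.93, adjusted p = 4.66e-06), at 52.2 and 64.9 CPM against 15.2 and 14.0.

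**Figure D4:**
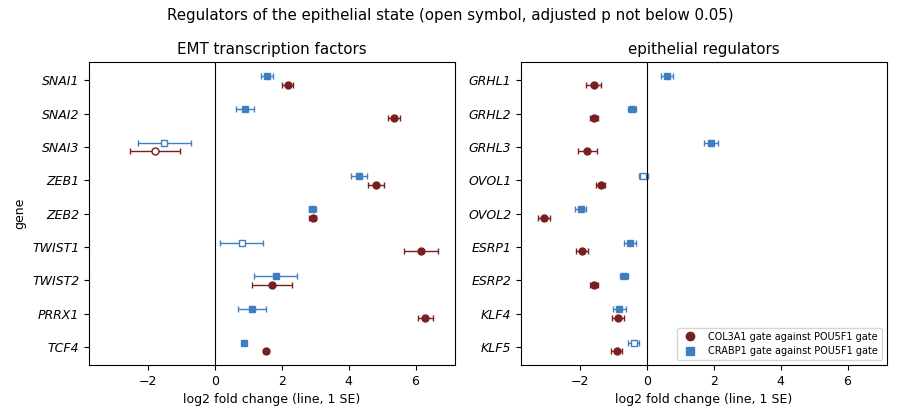
Log2 difference of the COL3A1 gate and the CRABP1 gate from the POU5F1 gate for 9 EMT transcription factors and 9 epithelial regulators, with lines for 1 SE. In the COL3A1 gate 8 EMT factors are higher and all 9 epithelial regulators lower, and ZEB2 differs by 2.93 in the COL3A1 gate and 2.92 in the CRABP1 gate.

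Among the rest of the cadherin family, 11 of 14 cadherins tested, from a list of 17, were higher in the *CRABP1* gate than in the other gates and 0 lower, with a median log2 difference of 1.80, against 0.017 over all genes tested, where 17.4% of all genes were higher. *CDH4*, the R-cadherin of retina and brain, was at 24.3 and 23.0 CPM there (3.30, adjusted p = 9.91e-10) and *CDH8*, a cadherin of neurons, at 22.6 and 30.4 (2.89, adjusted p = 8.80e-09), the values in parentheses being log2 differences. Of the same 14, 5 were higher and 5 lower in the *COL3A1* gate, with a median of -0.45, against 0.024 over all genes tested, of which 22.4% were higher and 18.1% lower. There *CDH13*, the T-cadherin that lacks an inner tail, was higher (3.50, adjusted p = 4.61e-09). *CDH19*, a cadherin of glial precursors, was at 98.6 and 62.6 CPM in the *SCRG1* gate and at 1.57 or less in each other gate and library (8.88, adjusted p = 6.83e-11).

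Of 11 other surface genes of epithelia, 11 were higher in the *GABRP* gate and 11 in the *TP63* gate than in the other gates, with median log2 differences of 1.50, against 0.037 over all genes tested, and 0.82, against 0.028 over all genes tested. Of all genes 29.7% were higher in the *GABRP* gate and 22.7% in the *TP63* gate. *PRSS8* (prostasin), a serine protease of the epithelial surface, was higher in the *GABRP* gate (1.90, adjusted p = 1.33e-11) and in the *TP63* gate (1.48, adjusted p = 1.05e-09), the values in parentheses being log2 differences. In the *COL3A1* gate 10 of the 11 were lower and 0 higher, with a median of -1.24, against 0.024 over all genes tested, of which 18.1% were lower. Of 9 mesenchymal genes 8 were higher and 0 lower in the *COL3A1* gate, where 22.4% of all genes were higher, with a median log2 difference of 2.27, against 0.024 over all genes tested. In the *GABRP* gate 5 of them were higher and 2 lower, where 29.7% of all genes were higher and 23.7% lower, with a median of 0.78, against 0.037 over all genes tested. There *TNC*, a matrix protein, was higher (2.90, adjusted p = 1.51e-10) and *VIM* (vimentin) lower (-2.06, adjusted p = 1.75e-09).

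Over the 12 sums, the log2 levels of *CDH1* and *EPCAM* had a Pearson correlation of 0.956, those of *CDH2* and *CDH11* 0.833, those of *CDH1* and *CDH11* -0.831, those of *CDH1* and *CDH2* -0.577 and those of the neighbours *CDH1* and *CDH3* 0.513. Among 9617 genes with a mean of at least 10 CPM, the patterns most like that of *CDH1* were those of *STARD10* (0.995), *ST14* (0.989), a membrane protease of epithelia, and *SPINT1* (0.988), an inhibitor of such proteases, and the last 2 also belong to the list of epithelial surface genes. For *CDH3* they were *OPTN* (0.988), *OBSL1* (0.987) and *TIAM2* (0.986), and for *EPCAM* *ARHGAP8* (0.989), *ZSWIM4* (0.985) and *PYGB* (0.984). For *CDH2* they were *LOC100621607* (0.993), *ZNF423* (0.984) and *TSPAN18* (0.975), for *CDH6* *PAX7* (0.977), *DCC* (0.970) and *NPY* (0.960) and for *CDH11* *NOL4L* (0.991), *DUSP6* (0.983) and *RFESD* (0.982). The 12 sums share 2 libraries and the same 6 gates, so these values describe likeness across gates and carry no test.

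In the 3 bulk pESC libraries FPKM values are scaled by transcript length, so members can be compared with each other. *EPCAM* was at 159, 169 and 141 FPKM in the columns IVFP25, PA_4P7 and PAP25 (156 ± 14.3, SD, n = 3) and *CDH1* at 166, 119.9 and 145 (144 ± 23.3, SD, n = 3), and the 2 overlapped. *CDH2* was at 20.1, 28.3 and 31.9 (26.8 ± 6.08, SD, n = 3) and *CDH3* at 19.3, 23.2 and 15.8 (19.5 ± 3.71, SD, n = 3), which overlapped too. *CDH11* was at 6.86, 8.96 and 11.3 (9.03 ± 2.21, SD, n = 3), of which 5.91, 8.06 and 7.71 came from 1 of its 6 annotated transcripts. *CDH6* was at 0.822, 1.61 and 1.65 (1.36 ± 0.468, SD, n = 3), and *CDH5* was listed at 0 in IVFP25 and stood at 0.0119 and 0.0339 in the other columns.

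The library PAP25 stood apart in hypoblast markers, of which 8 of 8 were highest there, with a sum of 505 FPKM against 89.5 in IVFP25 and 92.4 in PA_4P7. Of 9 mesenchyme markers 6 were highest in PAP25 too, with a sum of 20.0 FPKM against 12.2 and 13.2. Of 9 anterior neural markers 6 were highest there, although their sum was the lowest, 201 against 223 and 216. PAP25 also had the highest *CDH2*, *CDH11* and *CDH6* and the lowest *EPCAM* and *CDH3* of the 3 libraries. The part of any of these markers in this was not tested. Without PAP25 the means were 24.2 FPKM for *CDH2*, 7.91 for *CDH11*, 1.22 for *CDH6*, 164 for *EPCAM*, 21.3 for *CDH3* and 143 for *CDH1*.

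Within each pESC library *EPCAM* and *CDH1* were above *CDH2*, followed by *CDH3*, *CDH11*, *CDH6* and *CDH5*. The ratio of *CDH1* to *CDH2* was 8.30, 4.24 and 4.55 in the same column order. Among genes above 0, the mean percentile of the level was 98.0 for *EPCAM*, 97.8 for *CDH1*, 85.8 for *CDH2*, 81.0 for *CDH3*, 67.0 for *CDH11* and 39.9 for *CDH6*.

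**Figure D5:**
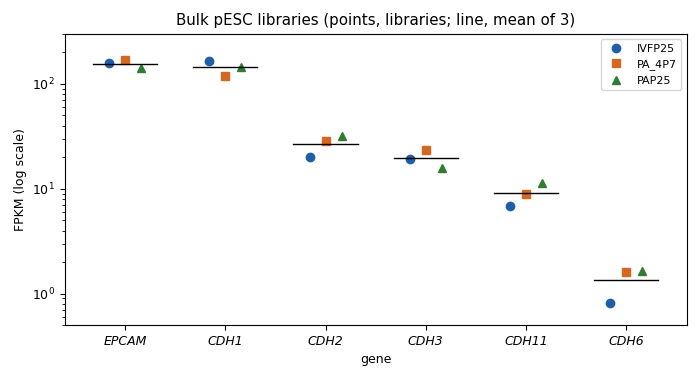
FPKM (log axis) of members in the 3 bulk pESC libraries, with points for libraries. EPCAM and CDH1 lie between 120 and 169 FPKM, CDH2 and CDH3 between 15.8 and 31.9, CDH11 between 6.86 and 11.3 and CDH6 between 0.822 and 1.65.

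The 9 EMT factors and the 9 epithelial regulators overlapped in level in pESCs. Of the former, *TWIST1* was the lowest by the mean but not in PAP25, at 0.0406, 0 and 0.352 FPKM, *ZEB1* was at 0.104, 0.125 and 0.317, *SNAI1*, picked after its values were seen, at 6.21, 10.5 and 5.24 and *TCF4*, the highest, at 8.39, 11.8 and 11.2. Of the latter, *GRHL3* was the lowest, at 0.894, 0.746 and 0.771, *OVOL1*, also picked after its values were seen, was at 3.02, 3.52 and 3.20 and *ESRP1*, the highest, at 40.6, 49.0 and 33.6. *CTNNB1* was at 229.6, 235 and 214. The number of reads behind these values is unknown, so no counting interval is given, and with 1 condition no test was made.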

How the data were processed

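The members and gene lists were chosen with earlier results of these data known. The single-cell values are UMI counts per gene and barcode that the authors deposited unfiltered, made with Cell Ranger 7.1.0 on susScr11. The bulk values are FPKM per RefSeq transcript that the authors deposited, made with Trim Galore 0.6.4, HISAT2 2.2.1 and StringTie 2.2.1, and they were summed here per gene symbol. No bulk column could be tied to a particular pESC replicate number, so columns are given by their names.

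UMI counts were summed per gate and library and fitted with edgeR 4.0.16 in R 4.3.3 (TMM factors, its filter on low counts, quasi-likelihood test, no block), with an adjusted p threshold of 0.05. The libraries held 289452283 and 302211552 UMIs over all barcodes. Cells with the highest Scrublet scores, at 0.8% per 1000 cells (434 and 535 cells), were called doublets, kept in the main values and left out as an alternative, because the automatic threshold marked 1 and 0 cells. Other alternatives were DESeq2 1.42.0, RLE factors, no filter on low counts, a replicate block for the library, other gate limits, a mitochondrial filter, thinned cells, barcodes from 1000 UMIs and leaving out each library. Sums from the same library deviated together, with correlations from 0.0190 to 0.185 over 15 pairs of gates, and the pairing comes from the shared library. In simulated counts for the *COL3A1* gate against the other gates, 158 of 195 changed genes and 7 of 17095 unchanged genes were called. The simulation gave all gates equal means apart from the changed genes, with 1 dispersion for all genes (0.00566) and no library effect. Its counts therefore do not give the rate of false calls in the data.

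The genes named are all members, at most the 3 called genes of each list with the largest absolute log2 difference in a comparison, and the 3 genes most correlated with each member among those with a mean of at least 10 CPM, gate genes and members left out. One gene of the lists is counted but its values are not reported here. Exceptions are said to be picked after their values were seen. Intervals and limits cover counting error only.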

Additional observations from a re-analysis of the deposited data

How the results depend on the processing

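Over the 60 tests of a member in a comparison, DESeq2 and RLE factors kept all 60 directions and calls. With the library as a replicate block, in a paired fit, 59 did, and *CDH2* in the *COL3A1* gate against the *POU5F1* gate passed (0.15, adjusted p = 0.0153), with 10432 genes called in that comparison. Leaving out a library changed no direction and gave no count of calls, since no residual degrees of freedom remained. Directions of 5 values that did not pass in the main test reversed, and the cause was not tested. *CDH1* in the *CRABP1* gate against the other gates became 0.12 with doublets left out and 0.068 with thinned cells. *CDH3* in the *SCRG1* gate against the *CRABP1* gate became 0.23 with a gate minimum of 3 UMIs and 0.15 with cells of more than 1 gate left out. *CDH6* in the *GABRP* gate against the *TP63* gate became -0.089 with barcodes from 1000 UMIs. For the *SCRG1* gate, with 66 cells, 3638 genes were called against the other gates, 408 with cells of more than 1 gate left out (10 cells) and 2155 with thinned cells. Against the *CRABP1* gate the counts were 2926, 812 and 1691.

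The mean share of cells with both *CDH1* and *CDH2* depends on depth. Without thinning it was 59.7% in the *POU5F1* gate, 54.3% in *CRABP1*, 18.4% in *GABRP*, 24.9% in *TP63*, 26.1% in *SCRG1* and 19.4% in *COL3A1*. With at least 2 UMIs of each gene, a choice made after seeing the data, it was 9.78%, 15.2%, 0.993%, 0.806%, 0% and 0.858% in the same order. A gate factor of 4 gave 3.95% in *GABRP*, 7.18% in *TP63* and 5.73% in *COL3A1*, and doublets left out 4.23%, 7.97% and 4.32%. Cells of more than 1 gate left out gave 6.64% in *GABRP*, 9.30% in *TP63* and 31.2% in *SCRG1*. Among genes with at least 1 FPKM the mean pESC percentile was 96.5 for *CDH1*, 69.7 for *CDH3*, 96.9 for *EPCAM*, 77.4 for *CDH2* and 47.4 for *CDH11*. Leaving out a pESC library gave means from 133 to 156 FPKM for *CDH1*, 17.6 to 21.3 for *CDH3*, 150.1 to 164 for *EPCAM*, 24.2 to 30.1 for *CDH2*, 1.22 to 1.63 for *CDH6* and 7.91 to 10.1 for *CDH11*.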
